A study of Anas platyrhynchos with 18 samples.

Results

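The comparison set posthatch skin against embryonic skin of white Pekin ducks by small RNA sequencing, with every posthatch stage pooled on one side and every embryonic stage on the other. Posthatch skin was taken at 1 day (1DB), 4 weeks (4WK) and 10 weeks (10WK) of age, with 3 libraries per stage. Embryonic skin was taken at day 11 (11EM), 15 (15EM) and 20 (20EM) of incubation, with 3 libraries per stage except 20EM, where replicate 2 was not analysed here and n = 2. Samples were assigned by their stage labels, and 17 of the 18 samples of the series entered the comparison (9 posthatch and 8 embryonic). All birds were untreated ducks of one breed, and skin over the thoracic vertebrae was sampled, so that feather follicles, epidermis, dermis, vessels and any adhering muscle were sequenced together. The labels do not say whether a library came from 1 bird or several, or give the sex. The p-values here measure only the spread between the 2 or 3 libraries of a stage. Differences between the stages of a period do not enter that spread.

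miRNAs are short RNAs cut as a duplex from a hairpin precursor; one arm (5p or 3p) is usually kept and loaded into a silencing complex, and the other is mostly degraded. The kept arm pairs with messenger RNAs mainly through its seed, bases 2 to 8, and lowers their translation and stability, so miRNAs that share a seed are treated as a family with overlapping targets. The family counts below go by name instead. Most take both arms of a hairpin, whose seeds differ, so such a family holds several seeds. In skin, miR-203 is known to restrain proliferation of stratifying keratinocytes and miR-205 to sustain epithelial progenitors, the let-7 family is known for its rise during animal development, the miR-17-92 cluster promotes proliferation, and miR-29 represses collagens and other matrix genes; these roles were established mostly in mammals and worms.

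Levels are given as CPM, the counts of a miRNA scaled by the sum of all miRNA counts of its library. Posthatch libraries held between 3072942 and 8568906 such counts and embryonic libraries between 4003331 and 15839714. A level of 3 counts corresponded to 0.189 to 0.976 CPM. Of 353 miRNAs with a count, 252 reached at least 1 CPM in at least 2 libraries and were tested. Fold changes are posthatch over embryonic on a log2 scale, with the 3 stages of a period weighted equally, from edgeR's quasi-likelihood test with Benjamini-Hochberg adjustment over the 252; a miRNA was called where the adjusted p was under 0.05 and the fold change at least 2. A miRNA had no overlap where every posthatch library lay on one side of every embryonic library in CPM. Fold changes and calls include edgeR's TMM scaling between libraries and CPM do not. With that scaling, more miRNAs were higher without overlap and fewer lower. In bulk skin, fewer cells of a type and less RNA per cell cannot be told apart.

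Mature sequences are shown for miRNAs called in the comparison and for miRNAs of the same seed that were not called. They are written 5′ to 3′ with the seed in capitals, as listed for the chicken miRNAs counted in the study. The first set is the miR-29 family, all of whose 3p arms were higher after hatch.
miR-29a-3p: uAGCACCAuuugaaaucgguu
miR-29b-3p: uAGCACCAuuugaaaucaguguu
miR-29c-3p: uAGCACCAuuugaaaucggu
The second set shares the AGUGCAA seed, and 4 of its 6 tested members were called lower, beside 29.4% of all tested miRNAs.
miR-454-3p: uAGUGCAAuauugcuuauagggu
miR-301a-3p: cAGUGCAAuaauauugucaaagcau
miR-130b-3p: cAGUGCAAuaaugaaagggcgu
miR-130a-3p: cAGUGCAAuauuaaaagggcau
miR-301b-3p: cAGUGCAAuaguauugucaaagcau
miR-130c-3p: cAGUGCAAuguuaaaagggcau
The third set is the miR-205 pair, in which 2 mismatches separate a miRNA that fell from one that was not called.
miR-205b: cCCUUCAUuccaccggaaucug
miR-205a: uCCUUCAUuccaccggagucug
The fourth set holds let-7k-5p, which rose, beside let-7f-5p, which differs from it by 1 mismatch and was not called.
let-7k-5p: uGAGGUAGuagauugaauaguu
let-7f-5p: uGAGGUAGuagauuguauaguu

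Posthatch skin had higher levels of 53 miRNAs and lower levels of 74, which is 21.0% and 29.4% of the 252 tested. The median log2 fold change over all tested miRNAs was -0.16. Without overlap between the periods were 77 miRNAs, of which 24 were higher after hatch (9.52%) and 53 lower (21.0%). The margin was often thin: the nearest libraries of the periods were at least 2-fold apart for only 8 of the 24 and 15 of the 53. The smallest gaps were 1.05-fold among the 24 and 1.01-fold among the 53. Of the 24, 22 were also called, the exceptions being let-7a-5p and let-7j-5p with fold changes under 2. Of the 53, 45 were also called; miR-92-3p, miR-1467-3p, miR-107-3p, miR-1552-3p, miR-222a, miR-20a-5p, miR-199-3p and miR-125b-3p fell short of the required fold change. Together the 24 took a median of 13.7% of the miRNA counts in posthatch libraries (7.72% to 15.6%), against 4.91% in embryonic libraries (4.49% to 5.79%). The 53 took a median of 5.13% in posthatch libraries (4.01% to 7.25%), against 18.1% in embryonic libraries (10.5% to 25.8%); these sums were fixed by how the sets were chosen and are a description. The plot of fold change against abundance shows both sets beside the other tested miRNAs.

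**Figure D1:**
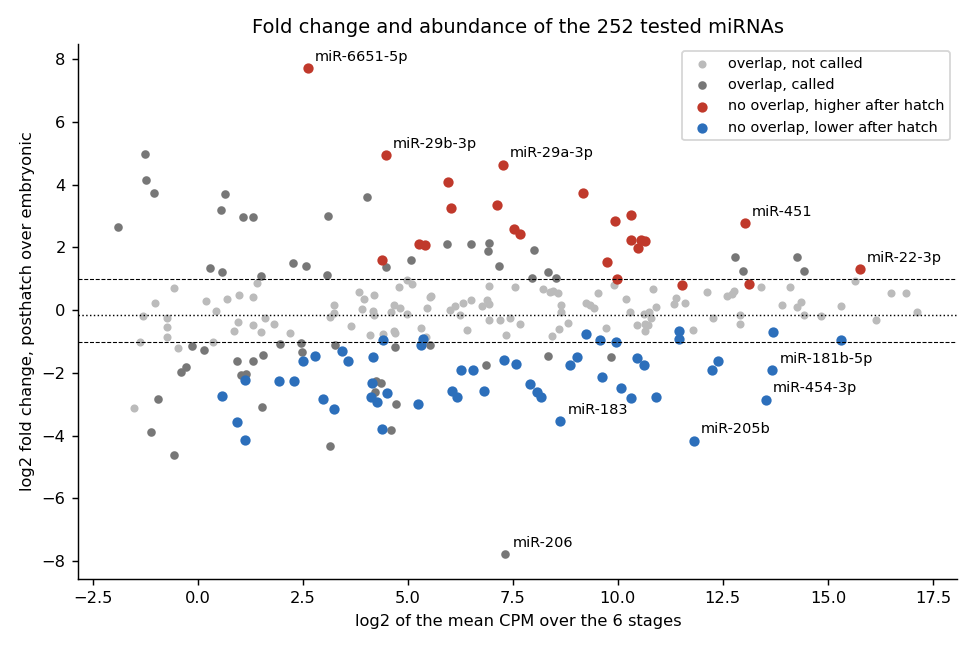
Log2 fold change, posthatch over embryonic, against the log2 of the mean CPM over the 6 stages for the 252 tested miRNAs. Dashed lines mark a fold change of 2 in each direction and the dotted line the median of -0.16; the 24 red points and 53 blue points are the miRNAs without overlap between the periods, and miR-22-3p is the most abundant of the red ones.

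All fold changes are relative to the miRNA pool of a library. When the counts were instead divided by all clean reads of a library, the median log2 fold change over all tested miRNAs was -1.78, a shift of -1.62, and the calls became 18 higher and 180 lower. On that scale 5 of the 24 still lay above every embryonic library (miR-29a-3p, miR-29b-3p, miR-29c-3p, miR-223 and miR-6651-5p), 11 were called higher and 18 had a positive fold change, while 49 of the 53 still lay below every embryonic library and all 53 were called lower. With library totals alone the median shifted by -0.21 (46 higher, 83 lower), and with the size factors of DESeq2 by 0.12 (55 higher, 69 lower). The libraries were also of more than one kind: clean reads made up under 96% of raw reads in 8 posthatch and 4 embryonic libraries, and over 98% in 1 posthatch and 4 embryonic libraries, which no label calls a batch. Among the libraries under 96% alone, 52 miRNAs were higher and 75 lower.

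Among the miRNAs higher without overlap, the 3p arms of the miR-29 family had the largest rises after miR-6651-5p, which rests on few counts and is described further on. miR-29a-3p had a lowest, median and highest level of 64.3, 268 and 554 CPM in posthatch libraries, against 2.81, 10.0 and 20.5 CPM in embryonic libraries, a log2 fold change of 4.64 (SE 0.21, adjusted p = 8.38e-11). miR-29b-3p was at 8.05, 51.1 and 84.9 CPM in posthatch libraries, against 0.253, 0.785 and 3.50 CPM in embryonic libraries (log2 fold change 4.94, SE 0.30, adjusted p = 7.58e-10). miR-29c-3p was at 31.2, 115 and 206 CPM in posthatch libraries, against 1.48, 6.04 and 14.7 CPM in embryonic libraries (log2 fold change 4.08, SE 0.20, adjusted p = 1.79e-10). For each of the 3, the lowest posthatch library lay above the highest embryonic one, by 3.14-fold, 2.30-fold and 2.11-fold. The rise did not begin at hatch: mean miR-29a-3p was 4.72, 11.4, 20.1, 79.8, 271 and 533 CPM from 11EM to 10WK, each stage above the one before. The minor 5p arms were also called higher (miR-29a-5p, miR-29b-1-5p and miR-29b-2-5p), each at under 7 CPM in every library and overlapping between the periods. miR-29b-2-5p reached 1 CPM only in posthatch libraries, and miR-29a-5p in no embryonic library but 20EM replicate 1. Both therefore passed the filter only through the period where they were high. Called higher were thus 6 of 6 tested members, beside 21.0% of all tested miRNAs. Their median log2 fold change was 4.36, against -0.16 over all tested. Count and median are a description, since the filter favoured these members. The listed sequence of miR-29c-3p equals that of miR-29a-3p without its last base, and how reads were divided between them is not stated in the sources used here, so they are not separate evidence.

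**Figure D2:**
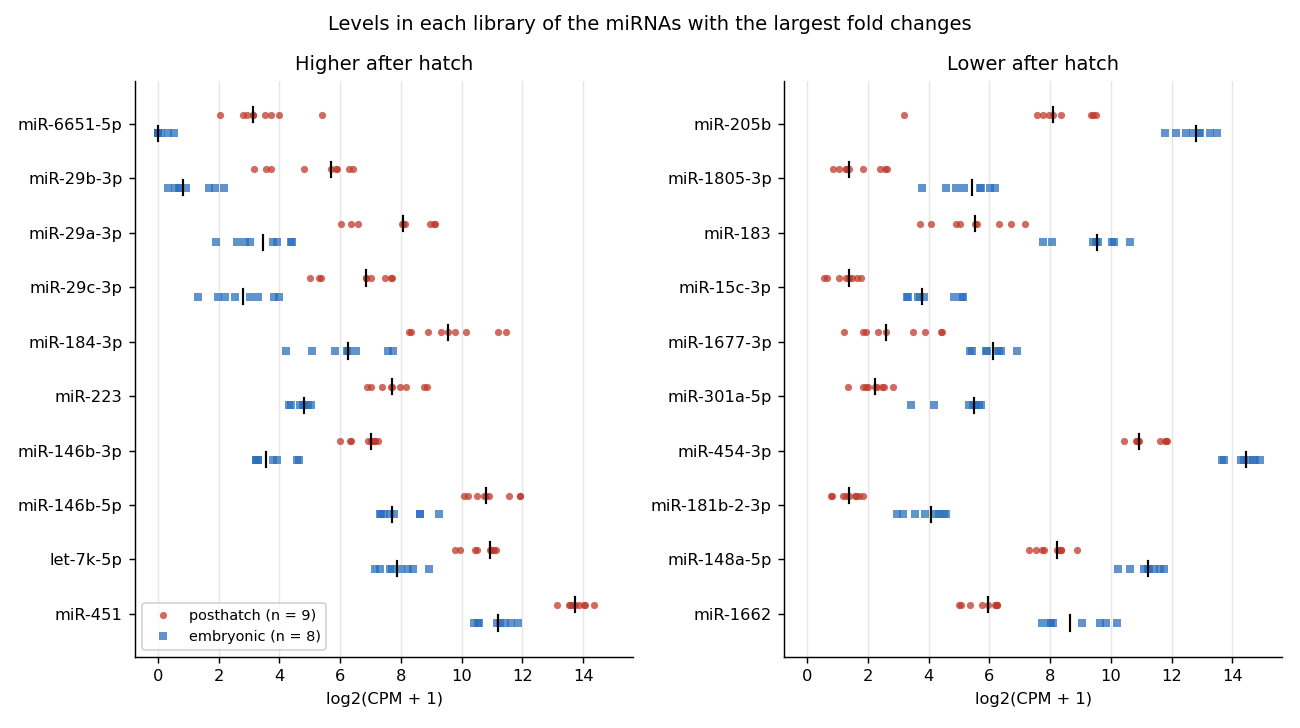
Level in each library, as log2(CPM + 1), of the 10 miRNAs per direction with the largest fold changes among those called, without overlap and at a mean of at least 10 CPM in the higher period. Red circles are the 9 posthatch libraries, blue squares the 8 embryonic libraries and black ticks the medians; in no row do the 2 colours overlap, and the lone red point of miR-205b at the left is a 4WK library.

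miR-223 and both arms of miR-146b also rose. miR-223, a marker of myeloid cells, was at 118, 210.4 and 459.6 CPM in posthatch libraries, against 18.9, 26.8 and 31.7 CPM in embryonic libraries (log2 fold change 3.36, SE 0.19, adjusted p = 4.2e-10). miR-146b-5p, which in mammals dampens signalling from Toll-like receptors, was at 1081, 1772 and 3864 CPM in posthatch libraries, against 157, 207 and 616 CPM in embryonic libraries (log2 fold change 3.02, SE 0.18, adjusted p = 6.44e-10). Its 3p arm, miR-146b-3p, was at 62.5, 128 and 152 CPM in posthatch libraries, against 8.42, 10.8 and 23.9 CPM in embryonic libraries (log2 fold change 3.24, SE 0.15, adjusted p = 7.45e-11). None of these 3 overlapped between the periods. miR-223 had means of 27.9, 23.7 and 25.9 CPM at 11EM, 15EM and 20EM, and of 138, 382 and 234 CPM at 1DB, 4WK and 10WK. In the miR-146 family 4 of 6 tested members were called higher (miR-146a-5p and miR-146a-3p besides), against 21.0% of all tested miRNAs. miR-146c-5p, the most abundant member at a median of 18821 CPM in posthatch and 19373 CPM in embryonic libraries, was not called (log2 fold change -0.15).

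Further rises came from a miRNA of epithelia and one of red cells. miR-184-3p, a miRNA of surface epithelia, was at 310.2, 748 and 2790 CPM in posthatch libraries, against 17.5, 75.2 and 214 CPM in embryonic libraries (log2 fold change 3.72, SE 0.36, adjusted p = 2.17e-07). miR-451, which is made during red cell maturation without the enzyme Dicer, was at 9047, 13719 and 20847 CPM in posthatch libraries, against 1355, 2371 and 3712 CPM in embryonic libraries (log2 fold change 2.77, SE 0.22, adjusted p = 2.45e-08). All posthatch libraries were above all embryonic ones for both, the nearest pair being 1.45-fold apart for miR-184-3p and 2.44-fold apart for miR-451. miR-144-3p, which is made from the same transcript as miR-451, was not called and lay at a median of 361 CPM in posthatch and 554 CPM in embryonic libraries. miR-6651-5p had the largest fitted change, but on few counts: 598 counts over the 9 posthatch libraries (3.15, 7.69 and 41.3 CPM), against 7 over the 8 embryonic libraries (0, 0 and 0.433 CPM). It reached 1 CPM only in posthatch libraries, and so passed the filter only through the period where it was high. Its fitted log2 fold change of 7.71 (SE 0.70, adjusted p = 3.48e-07) therefore depends on how counts near 0 are handled.

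The let-7 family split. let-7k-5p was at 887, 1971 and 2221 CPM in posthatch libraries, against 139, 233 and 481 CPM in embryonic libraries (log2 fold change 2.85, SE 0.12, adjusted p = 6.23e-11). let-7b rose by 2.23 on the log2 scale (SE 0.13), with 1459 to 2320 CPM in posthatch and 93.3 to 1195 CPM in embryonic libraries. let-7a-5p and let-7j-5p have the same mature sequence, share their reads, and gave log2 fold changes of 0.82 and 0.81. All 8 tested main strands had a positive fold change, with a median of 0.63. These fold changes include edgeR's TMM scaling between libraries, and the CPM do not. let-7c-5p, at 0.19, had means over the stages of 2583 CPM in posthatch and 2602 CPM in embryonic skin. Of the 8, 4 were higher without overlap, against 9.52% of all tested miRNAs, and 2 were called higher, a share near the 21.0% of all tested. let-7f-5p, the most abundant at a median of 20335 CPM in posthatch and 22475 CPM in embryonic libraries, was not called. Each of the 8 main strands lies within 2 mismatches of another, though not of every other. let-7b is that close to let-7a-5p, let-7c-5p and let-7j-5p but not to let-7f-5p. How the authors' matching divided such reads is not stated in the sources used here.

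**Figure D3:**
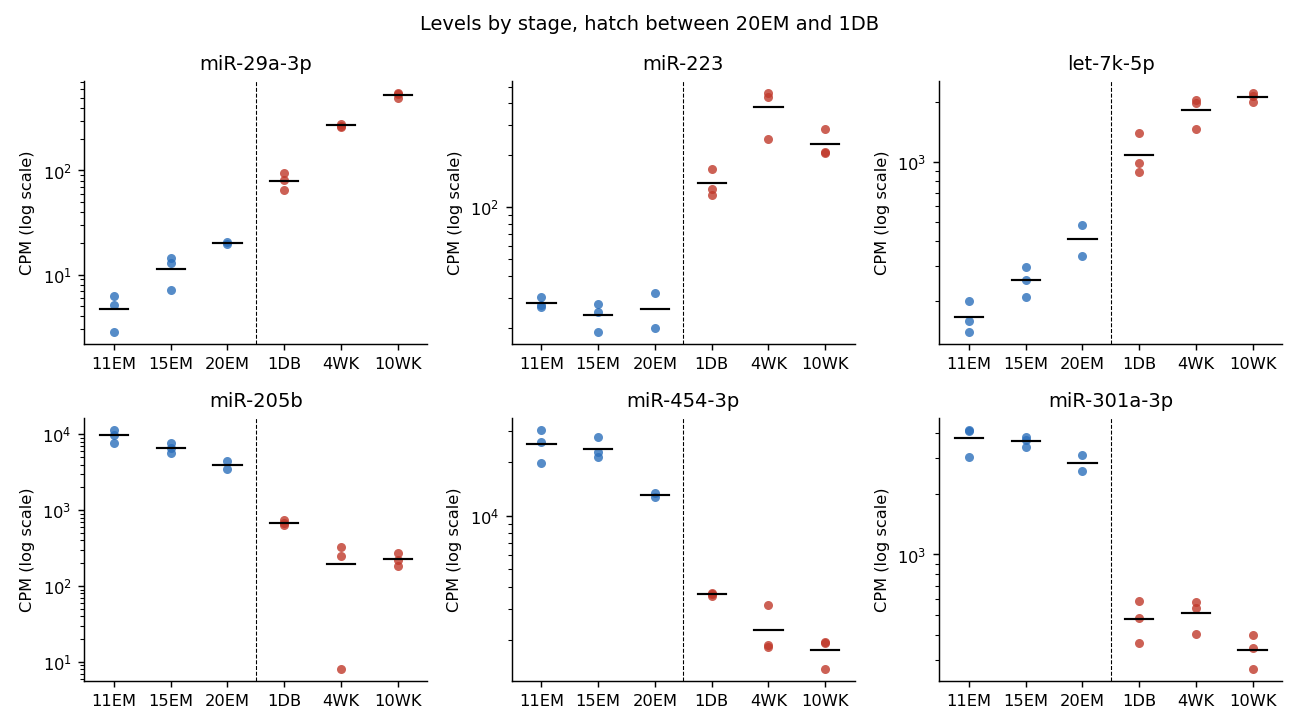
CPM (log axis) in each library by stage for 6 miRNAs, with black bars for stage means and a dashed line at hatch; red points are posthatch and blue points embryonic libraries. miR-29a-3p and let-7k-5p climb at every stage, miR-223 is level until 20EM, and miR-205b, miR-454-3p and miR-301a-3p are lower at 1DB than at 20EM in every library.

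The other miRNAs that were higher without overlap and were called were miR-193b-3p (2.60), miR-30e-5p (2.43), miR-2188-5p (2.25), miR-142-5p (2.20), miR-1b-3p (2.11), let-7j-3p (2.08), miR-24-3p (1.98), miR-22-5p (1.59), miR-23b-3p (1.54), miR-22-3p (1.32) and miR-221-3p (1.00), with the log2 fold change in parentheses. miR-22-3p, a broadly expressed miRNA, was the most abundant of all of them, at 42764, 83766 and 106134 CPM in posthatch libraries, against 31203, 32097 and 36824 CPM in embryonic libraries (SE 0.08, adjusted p = 7.26e-10). miR-23b-3p and miR-24-3p come from one cluster with miR-27b, of whose 6 tested members these 2 were called, beside 21.0% of all tested miRNAs called higher. miR-221-3p sat at the fold change required of a call and was not called with library totals (0.81). Its cluster partner miR-222a has the same seed and went the other way without overlap, at 1152 to 2468 CPM in posthatch and 2534 to 5370 CPM in embryonic libraries (log2 fold change -0.91).

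Among the abundant miRNAs, 3 more were called higher although the periods overlapped. miR-21-5p was at 12672, 26075 and 67414 CPM in posthatch libraries, against 9080, 14500 and 17330 CPM in embryonic libraries (log2 fold change 1.25, SE 0.10, adjusted p = 2.09e-08); without 4WK the value was 0.91. miR-203a, the keratinocyte miRNA, was at 7617, 22482 and 35293 CPM in posthatch libraries, against 237, 16520 and 38568 CPM in embryonic libraries (log2 fold change 1.71, SE 0.21, adjusted p = 3.36e-06). That call rested on 11EM, where its mean was 489 CPM against 19557 CPM at 15EM and 30285 CPM at 20EM, and without 11EM the log2 fold change was -0.20 (adjusted p = 0.288). miR-140-3p, known from cartilage, was at 8540, 11224 and 12748 CPM in posthatch libraries, against 3330, 3932 and 18942 CPM in embryonic libraries (log2 fold change 1.25, SE 0.26, adjusted p = 0.000445). Its highest embryonic value came from 11EM replicate 3, and without that library the log2 fold change was 1.75.

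Among the miRNAs that were lower without overlap, miR-205b changed most. It was at 8.08, 272 and 734 CPM in posthatch libraries, against 3496, 7127 and 11530 CPM in embryonic libraries, a log2 fold change of -4.16 (SE 0.46, adjusted p = 8.6e-07), and the nearest libraries of the 2 periods were 4.76-fold apart. Its stage means were 9699, 6644, 3983, 689, 193 and 225 CPM from 11EM to 10WK. The posthatch low of 8.08 CPM was 4WK replicate 1, the only posthatch library over 98% clean reads, and the other 8 posthatch libraries lay between 187 and 734 CPM; without it the log2 fold change was -3.97. miR-205a, 2 mismatches away and more abundant in every library, was at 26421, 36746 and 51166 CPM in posthatch libraries, against 12664, 42559 and 77867 CPM in embryonic libraries, and was not called (log2 fold change 0.15, SE 0.16). How many reads of one were counted on the other was not tested.

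Most tested members of the miR-130, miR-301 and miR-454 family fell, and the second set of sequences above lists its 3p arms. miR-454-3p, its most abundant member before hatch, was at 1373, 1950 and 3685 CPM in posthatch libraries, against 12795, 22091 and 30581 CPM in embryonic libraries (log2 fold change -2.85, SE 0.15, adjusted p = 1.89e-10). miR-301a-3p was at 272, 406 and 587 CPM in posthatch libraries, against 2579, 3530 and 4132 CPM in embryonic libraries (log2 fold change -2.75, SE 0.12, adjusted p = 6.23e-11), a gap of 4.39-fold between the nearest libraries. miR-301a-5p was at 1.52, 3.71 and 6.06 CPM in posthatch libraries, against 9.74, 43.7 and 52.0 CPM in embryonic libraries (log2 fold change -2.91, SE 0.17, adjusted p = 6.44e-10). miR-130b-3p was at 1092, 1451 and 3059 CPM in posthatch libraries, against 5407, 8182 and 10304 CPM in embryonic libraries (log2 fold change -1.91, SE 0.08, adjusted p = 5.1e-11). Of 12 tested members 10 were called lower, beside 29.4% of all tested miRNAs. Lower without overlap were 9 (miR-130a-3p, miR-130a-5p, miR-130b-5p, miR-130c-5p and miR-301b-5p besides), beside 21.0% of all tested. The median log2 fold change was -2.02, against -0.16 over all tested miRNAs. Among the called members, miR-454-5p reached 1 CPM only in embryonic libraries, so it passed the filter only through them. Count and median are therefore a description. miR-130a-5p and miR-130c-5p are 1 mismatch apart, as are miR-301a-3p and miR-301b-3p, and how such reads were divided is not stated. The summed level of the family was 6005 to 10834 CPM in posthatch libraries and 26984 to 51159 CPM in embryonic libraries. Within the same seed, miR-130c-3p was not called, at 1139 to 1445 CPM in posthatch and 925 to 1267 CPM in embryonic libraries, although 1 mismatch separates it from miR-130a-3p; likewise miR-301b-3p was not called (log2 fold change -0.47).

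The miR-17-92 cluster and its paralogue gave negative fold changes for all 17 tested members. Their median log2 fold change was -1.50, against -0.16 over all tested miRNAs. Of the 17, 12 were called lower, beside 29.4% of all tested miRNAs, and 12 were lower without overlap, beside 21.0%. The called and the non-overlapping members were not the same. miR-19b-5p and miR-20b-3p were called lower but overlapped, and miR-92-3p and miR-20a-5p did not overlap but were not called. After hatch miR-19b-5p reached 1 CPM only in 10WK replicate 1, so it passed the filter only through embryonic libraries. Without overlap were miR-18b-3p (-2.76), miR-106-3p (-2.62), miR-92-5p (-2.58), miR-18b-5p (-2.36), miR-19a-5p (-2.25), miR-106-5p (-1.73), miR-18a-5p (-1.72), miR-20b-5p (-1.50), miR-18a-3p (-1.30), miR-17-5p (-1.02), miR-92-3p (-0.96) and miR-20a-5p (-0.77). miR-92-3p was the most abundant of them, at 16880, 24930 and 31377 CPM in posthatch libraries, against 32446, 55528 and 109112 CPM in embryonic libraries. Its means were 79655, 56911, 33061, 30205, 22388 and 20228 CPM from 11EM to 10WK, so that 20EM and 1DB lay close together. miR-17-5p lay close to the fold change required of a call. miR-17-5p, miR-106-5p, miR-20a-5p and miR-20b-5p each lie within 2 mismatches of another of them. miR-18a and miR-18b differ by 1 mismatch in each arm. How such reads were divided is not stated, so these members are not separate evidence.

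In the miR-181 family, known from lymphocyte and neural development, 4 of 5 tested members fell without overlap, beside 21.0% of all tested miRNAs. miR-181b-5p was at 2883, 3961 and 8495 CPM in posthatch libraries, against 12437, 20589 and 31048 CPM in embryonic libraries (log2 fold change -1.90, SE 0.11, adjusted p = 4.2e-10). miR-181b-2-3p was at 0.727, 1.63 and 2.56 CPM in posthatch libraries, against 6.84, 15.9 and 22.9 CPM in embryonic libraries (log2 fold change -2.83, SE 0.23, adjusted p = 2.37e-08). miR-181b-1-3p and miR-181a-3p changed by -2.63 and -2.49. The exception was miR-181a-5p, the most abundant, at a median of 49973 CPM in posthatch and 82962 CPM in embryonic libraries (log2 fold change -0.30, not called). miR-181b-1-3p and miR-181b-2-3p are 2 mismatches apart and may share reads. In the miR-15 and miR-16 family the sign was mixed. miR-15c-5p was at 1461, 2227 and 2901 CPM in posthatch libraries, against 5228, 6434 and 13909 CPM in embryonic libraries (log2 fold change -1.61, SE 0.10, adjusted p = 1.73e-09), and miR-15c-3p was at 0.485, 1.58 and 2.45 CPM in posthatch libraries, against 8.83, 12.9 and 34.4 CPM in embryonic libraries (log2 fold change -3.16, SE 0.26, adjusted p = 2.53e-08). miR-15b-3p also fell without overlap (-2.26). miR-15a and miR-15b-5p, each 1 mismatch from miR-15c-5p, had fold changes of 0.81 and 0.61 and were not called.

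**Figure D4:**
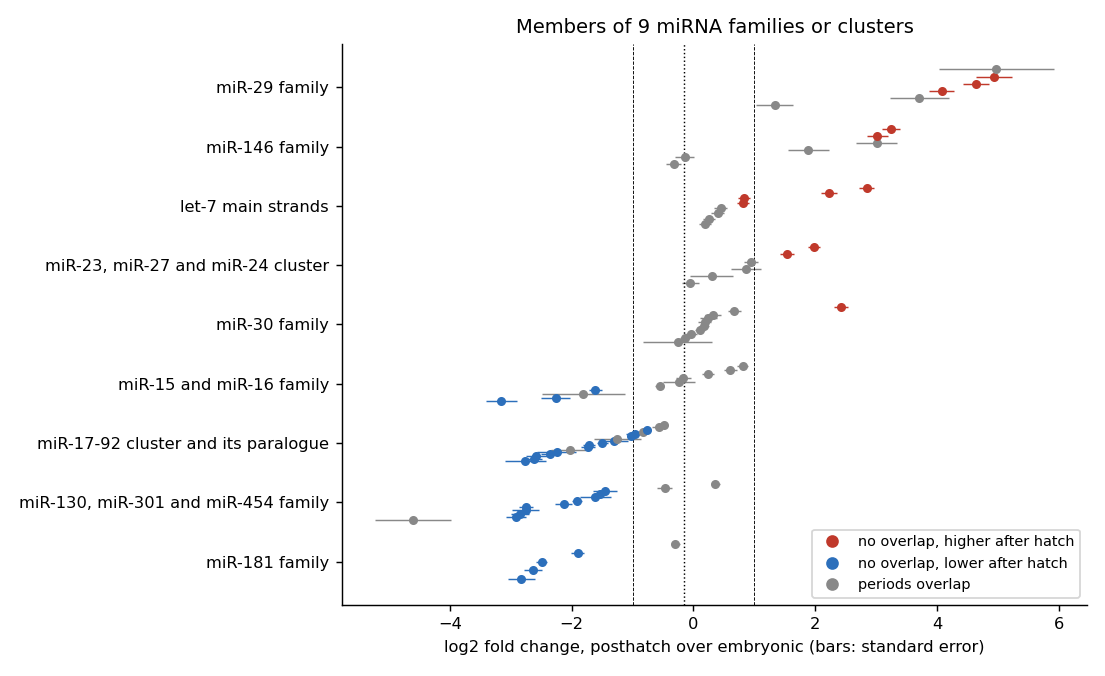
Log2 fold change, posthatch over embryonic, with its standard error for the tested members of 9 families or clusters. Red and blue points are members without overlap, grey points members whose periods overlapped, dashed lines a fold change of 2 and the dotted line the median of all tested miRNAs; all 6 members of the miR-29 family lie to the right and all 17 of the miR-17-92 cluster and its paralogue to the left of 0.

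The other named falls had no family in the lists. miR-183, a miRNA of sensory and epithelial cells, was at 12.3, 45.2 and 145 CPM in posthatch libraries, against 214, 746 and 1568 CPM in embryonic libraries (log2 fold change -3.53, SE 0.29, adjusted p = 3.64e-08). miR-1805-3p was at 0.808, 1.63 and 5.17 CPM in posthatch libraries, against 12.7, 42.5 and 71.8 CPM in embryonic libraries (log2 fold change -3.80, SE 0.19, adjusted p = 1.89e-10). miR-148a-5p was at 159, 299.9 and 473 CPM in posthatch libraries, against 1193, 2411 and 3438 CPM in embryonic libraries (log2 fold change -2.80, SE 0.15, adjusted p = 2.72e-10). miR-1662 was at 30.9, 60.9 and 75.3 CPM in posthatch libraries, against 211, 398 and 1168 CPM in embryonic libraries (log2 fold change -2.77, SE 0.14, adjusted p = 1.97e-10). miR-1677-3p was at 1.30, 5.05 and 20.5 CPM in posthatch libraries, against 40.2, 68.1 and 118 CPM in embryonic libraries (log2 fold change -2.99, SE 0.26, adjusted p = 7.38e-08). In none of these did the periods overlap, and for miR-183 the level at 20EM (241 CPM) was already far below that at 11EM (1100 CPM). The remaining called falls without overlap were miR-34b-5p, miR-1805-5p, miR-135a-2-3p, miR-100-3p, let-7c-3p, miR-107-5p, miR-128-1-5p, miR-9-3p, miR-456-3p, miR-1467-5p, miR-9-5p, miR-135a-5p and miR-190a-5p, with log2 fold changes between -4.15 and -1.12. Several of them were near the detection floor after hatch: miR-34b-5p had 7 counts over all posthatch libraries, against 513 over the embryonic ones, and miR-1805-5p and miR-135a-2-3p had 16 counts each, against 390 and 278. All of these reached 1 CPM only in embryonic libraries, and so passed the filter only through the period where they were high.

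Other families moved little or in part. In the miR-30 family 1 of 10 tested members was called higher (miR-30e-5p), beside 21.0% of all tested miRNAs, with a median log2 fold change of 0.18. In the miR-34 and miR-449 family 4 of 7 were called lower, beside 29.4% of all tested miRNAs, and 1 higher, beside 21.0%. Among the lower ones, miR-34b-5p and miR-34b-3p reached 1 CPM only in embryonic libraries and passed the filter only through them. The count of lower members is therefore a description. In the miR-200 family, which maintains epithelial identity, 2 of 6 were called lower, a share near the 29.4% of all tested, and none without overlap. None of the 6 tested members of miR-10 and miR-196 was called, nor any of the 3 of miR-199 and miR-214, although miR-199-3p did not overlap (-0.69).

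Arms were compared by name, and some names add up reads of several hairpins. In 80 hairpins both arms were tested: 9 had both called higher, 16 both called lower, 1 had arms called in opposite directions (miR-133a), 32 had 1 arm called and 22 none. The less abundant arm had the lower log2 fold change in 55 of the 80 hairpins, with a median difference of -0.56 (-0.49 with clean reads as the denominator and -0.52 with DESeq2), and in 33 of the 48 whose less abundant arm averaged at least 10 CPM (median difference -0.35). Less abundant arms were called lower in 34 of the 80 hairpins and more abundant arms in 20, beside 29.4% of all tested miRNAs. Called higher were 12 and 18, beside 21.0%. Some less abundant arms passed the filter only through the period where they were high. Examples are miR-454-5p and miR-34b-3p before hatch and miR-1b-5p after it, so these counts are a description. For miR-100 the 3p arm was at 18.5 to 39.1 CPM in posthatch and 91.9 to 292 CPM in embryonic libraries (log2 fold change -2.58), while the 5p arm was at 10264 to 15023 CPM in posthatch and 7497 to 10311 CPM in embryonic libraries (log2 fold change 0.74). miR-148a, miR-181a and let-7c showed the same split, with the less abundant arm at -2.80, -2.49 and -2.31 and the other at -0.17, -0.30 and 0.19. The reverse was seen for miR-30e, whose 5p arm rose by 2.43 while the 3p arm was at -0.05; reads of miR-30a-5p, 1 mismatch away and at a median of 19382 CPM in posthatch and 19254 CPM in embryonic libraries, could enter that count. Among the libraries under 96% clean reads the less abundant arm was the lower one in 61 of the 80 hairpins. This summary of arms was chosen after the values were seen, and no test was run on it.

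**Figure D5:**
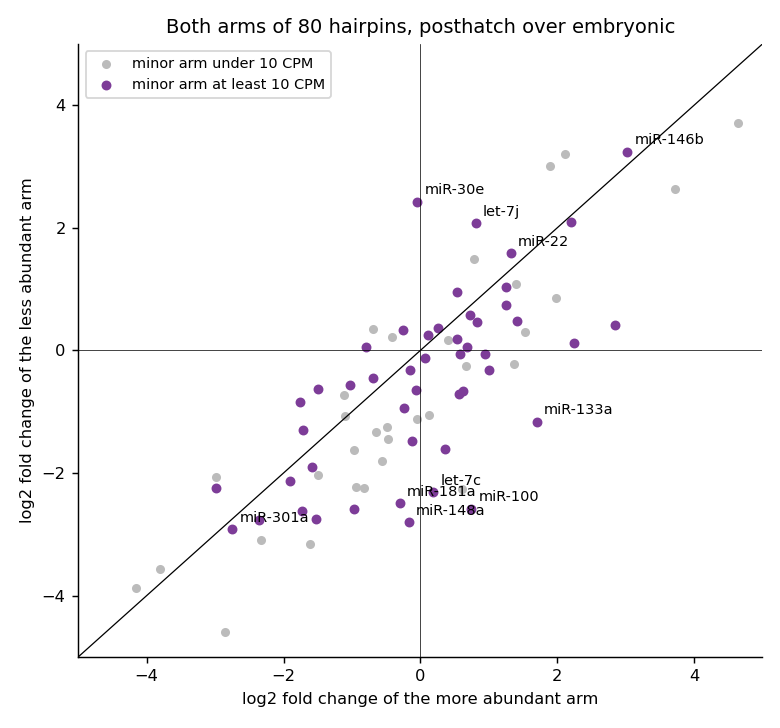
Log2 fold change, posthatch over embryonic, of the less abundant arm (vertical) against the more abundant arm (horizontal) of 80 hairpins; the diagonal marks equal change. Purple points are hairpins whose less abundant arm averaged at least 10 CPM; 55 of the 80 points lie below the diagonal, with miR-100, miR-148a, miR-181a and let-7c well below it and miR-30e well above.

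Between 1DB and 20EM, the adjacent stages, 29 miRNAs were called higher (11.5%) and 43 lower (17.1%). These stages are part of the pooled comparison, so the values are set side by side and not as separate evidence. Of the 24 miRNAs higher without overlap 15 were called between 1DB and 20EM, with a median log2 change of 1.49, against 2.34 over the periods; of the 53 lower ones 24 were called, with a median of -0.95, against -2.13. The nearest embryonic library was one of 20EM for 14 of the 24 and 48 of the 53, and the nearest posthatch library was one of 1DB for 20 and 32. Stage means of the 24 were highest at 10WK for 13 and at 4WK for 11, and never at 1DB; those of the 53 were highest at 11EM for 33 and at 15EM for 20. Levels also differed within a period: 153 of all tested miRNAs (60.7%) differed over 11EM, 15EM and 20EM and 99 (39.3%) over 1DB, 4WK and 10WK at an adjusted p under 0.05. Of the 24 these were 16 and 14, and of the 53 they were 40 and 25. For miR-451 and miR-193b-3p the log2 change was 2.28 and 2.36 between 1DB and 20EM, beside 2.77 and 2.60 over the periods, whereas for miR-181b-5p it was -0.58, not called, beside -1.90.

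Markers of cell types that skin can hold moved with the periods in part. miR-205a, an epithelial marker, was at 26421 CPM or more in posthatch libraries and 12664 CPM or more in embryonic libraries. The leukocyte list summed to 1014 to 9308 CPM in posthatch libraries, against 448 to 742 CPM in embryonic libraries. All 3 of its tested members were called higher, beside 21.0% of all tested miRNAs (miR-142-5p at 846 to 8319 CPM in posthatch and 404 to 688 CPM in embryonic libraries, miR-142-3p and miR-223). The erythroid list summed to 9382 to 21235 CPM in posthatch libraries, against 1830 to 4289 CPM in embryonic libraries, with miR-451 called higher and miR-144-3p not called. The muscle list summed to 5233 to 15076 CPM in posthatch libraries, against 459 to 14085 CPM in embryonic libraries, with 3 of 7 members called higher and 1 lower, beside 21.0% and 29.4% of all tested miRNAs. That one was miR-206, a miRNA of developing skeletal muscle, which averaged 833 CPM at 11EM and 0.466 CPM at 10WK and was at 0 to 1.62 CPM in posthatch and 0 to 1052 CPM in embryonic libraries. The mesenchymal list summed to 12628 to 22887 CPM in posthatch libraries, against 20754 to 45312 CPM in embryonic libraries, with none of its 3 members called, and the epidermal list to 36678 to 90223 CPM in posthatch libraries, against 22031 to 119054 CPM in embryonic libraries. Of the 7 epidermal members, miR-203a and miR-184-3p were called higher and miR-205b lower, beside 21.0% and 29.4% of all tested miRNAs. miR-205a, miR-200a-3p, miR-200b-3p and miR-429-3p were not called. Neither of the endothelial members was called. miR-122-5p, which marks liver, was at a median of 0.646 CPM in posthatch and 0.537 CPM in embryonic libraries; it was called higher (log2 fold change 2.97, SE 1.22) on 198 posthatch and 130 embryonic counts, but 149 of the 198 came from 1DB replicate 2, and without that library it was not called (2.24, adjusted p = 0.0757). The cartilage list summed to 9040 to 13964 CPM in posthatch libraries, against 4389 to 22795 CPM in embryonic libraries. Of its 4 members 2 were called higher and 1 lower, beside 21.0% and 29.4% of all tested miRNAs. Both arms of miR-140 were higher, miR-455-5p was lower (log2 fold change -1.49), and miR-455-3p was not called (-0.62). All 4 had their highest embryonic level in 11EM replicate 3, which also gave the top of the embryonic sum. Levels in that library were 18942 CPM for miR-140-3p, 654 for miR-140-5p, 2981 for miR-455-5p and 218 for miR-455-3p. The neural list summed to 2223 to 3607 CPM in posthatch libraries, against 2970 to 7624 CPM in embryonic libraries. Of its 4 members 2 were called lower (miR-9-5p and miR-124a-3p), beside 29.4% of all tested miRNAs. miR-124a-3p reached 1 CPM only in embryonic libraries. The gut list summed to 8.52 to 42.1 CPM in posthatch libraries, against 14.4 to 47.0 CPM in embryonic libraries. Of its 2 tested members 1 was called higher, beside 21.0%. Of the early embryo markers, miR-302d, which the files name without an arm, had 0 counts in posthatch libraries, against 85 in embryonic libraries, and was not called; the others with counts were below the filter on low values. The part of cell content in the changes was not tested.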

How the data were processed

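Small RNA of duck skin was sequenced by the study, which cleaned the reads of adapter and tail sequence, discarded poor or short ones and those from other noncoding RNA, and matched the rest to chicken miRNAs of miRBase with CLC Genomic Workbench. The mismatches allowed in that last step are not given in the sources used here. The deposited values are raw counts per mature arm of each hairpin, made by the authors without normalization. Counts were added up over lines with the same name, and a miRNA absent from a library was given 0. Depth was 3072942 to 15839714 counts per library; intervals and floors cover counting error only.

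The fit used edgeR 4.0.16 (TMM, quasi-likelihood) in R 4.3.3 with 6 stage groups in 1 model and the equally weighted contrast of 3 posthatch against 3 embryonic stages. Standard errors came from the fold change and F value. The miRNAs in full are, per direction, the 10 largest changes among those called, without overlap and at a mean of at least 10 CPM in the higher period, and the 5 most abundant called; every miRNA without overlap is named. The comparison, members and lists were chosen with earlier results of these data known. Alternatives were DESeq2 1.42.0, limma 3.58.1 on log2(CPM + 1), other denominators, filters, thresholds and designs, a block and covariate, and leaving out each stage and library. The clean-read denominator and library kinds come from the study's table of reads. Sequences are the mature chicken sequences listed by the study. Python 3.11.15, numpy 2.4.6 and pandas 2.3.3 were used for tables and matplotlib 3.10.9 for figures. The test was tested on simulated data. Genome positions and replicate 2 of 20EM were not analysed here.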

Additional observations from a re-analysis of the deposited data

Results flagged for a closer look

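Within each period, the highest or lowest library was set against the rest for the 27 miRNAs given in full, which makes 54 groups of 8 or 9 libraries, and 2 stood apart. Chance would flag about 1 group in 20 if the libraries of a group were alike. Each group pools 3 stages whose levels can differ, and the groups share libraries, so that rate is only a rough guide. miR-6651-5p was at 41.3 CPM in 4WK replicate 2, the highest of the posthatch libraries, against 15.0 CPM in the next. miR-140-3p was at 18942 CPM in 11EM replicate 3, the highest of the embryonic libraries, against 4420 CPM in the next.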

How the results depend on the processing

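The counts of miRNAs called higher and lower after hatch (53 and 74) stayed within 1.5 times under library totals, DESeq2, limma, other filters, the largest line of a name, a replicate block, library kind as a covariate, and 2 groups. The counts without overlap (24 and 53) rest on library levels in CPM and on no model, but they depend on how libraries are scaled. With TMM scaling they were 30 higher and 45 lower. Exceptions were as follows. With clean reads as the denominator the calls were 18 higher and 180 lower, and 5 higher without overlap. Leaving out libraries can only keep or add miRNAs without overlap, so growth there is no check of the 24 and 53: among libraries under 96% clean reads alone 37 were higher without overlap, and without stage 1DB 38. Requiring an absolute log2 fold change of at least 2 gave 30 higher and 40 lower, and requiring none gave 86 higher. Leaving out 1 library at a time gave 46 to 55 higher and 65 to 76 lower; by construction the counts without overlap could only stay or grow, and were 24 to 28 higher and 53 to 61 lower. Signs turned for 9 values. With clean reads as the denominator the log2 fold changes were -0.27 for miR-22-3p, -0.37 for miR-21-5p, -0.39 for miR-140-3p, -0.75 for let-7a-5p, -0.76 for let-7j-5p, -0.060 for miR-22-5p, -0.58 for miR-221-3p and -0.083 for miR-23b-3p; without stage 11EM it was -0.20 for miR-203a. The cause was not tested. Deviations from stage means correlated at a mean of -0.03 for libraries of the same replicate number (40 pairs, -0.39 to 0.71). For different numbers the mean was 0.02 (80 pairs). Deviations cancel within a stage, so these means are largely tied, and a low mean cannot show whether some libraries were paired. With the replicate block 50 miRNAs were higher and 72 lower. Depth limits miRNAs near 3 counts, which is 0.189 to 0.976 CPM.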
